A study of Arabidopsis thaliana with 6 samples.

Results

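miR319 is a small RNA family that cuts the messages of the CIN-type class II TCP transcription factors. Its members were defined here by predicted targets: an entry of the miRNA table was taken where the deposited target sheet gives it a site with an expectation of 4 or less in at least 4 of the 5 genes TCP2 (AT4G18390), TCP3 (AT1G53230), TCP4 (AT3G15030), TCP10 (AT2G31070) and TCP24 (AT1G30210). The expectation is the penalty score of the psRNATarget program, and a lower value means closer pairing between miRNA and message. The rule took 3 entries, which hold 2 distinct sequences of the 142 in the table (178 entries). Both lie at MIR319 genes of the reference annotation, so the label held. The sequence shared by MIR319a and MIR319b is called miR319a/b and was listed at 2 entries with the same counts, and the other is called miR319c. The rule used no level of any library.

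The libraries compared 2 genotypes of Arabidopsis thaliana, with 3 small RNA libraries each. ein2-1 plants carry a mutation in EIN2, a membrane protein without which plants do not respond to ethylene, and Col-0 is the unmutated accession. Plants of both genotypes were 14-day-old seedlings grown on agar under long days, were submerged for 1 hour and then had leaf explants kept for 7 days on CIM, a callus-inducing medium. The RNA came from the upper part of the explants. Every library was thus both submerged and cultured, so the comparison is of genotypes and not of submergence or callus culture. ein2-1 is 1 allele in the labels. The labels call the replicates biological but do not say how many plants or explants each held. Small RNA tables hold no message of EIN2 or of a leaf or callus marker, so genotype and tissue were not checked here. A lower level in such bulk tissue can come from fewer cells of a type or from less RNA per cell, and these cannot be told apart.

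In growing leaves, CIN-type TCP factors push cells from division to differentiation, and miR319 limits them by guiding cleavage of their messages, so that an excess of miR319 gives crinkled leaves with prolonged growth at the margins. miR159 is the closest relative of miR319 in sequence, yet acts mainly on GAMYB-like MYB factors, which are known from gibberellin responses, anthers and pollen. Because the families share most of their bases, the register and a few positions decide which messages pair well.

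The mature sequences are shown first because the small differences between them separate both families and both miR319 members. They are read 5′ to 3′ from the deposited sheet, with the seed (bases 2 to 8) in capitals.
miR319a/b: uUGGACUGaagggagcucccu
miR319c: uUUGGACUgaagggagcuccu
miR159a: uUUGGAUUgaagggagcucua
miR159b-3p: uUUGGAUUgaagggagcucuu

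All 4 are 21 bases long. In the TAIR10.1 assembly miR319a/b lies at chr4:12353109-12353129 on the plus strand (MIR319a, AT4G23713) and at chr5:16660469-16660489 on the minus strand (MIR319b, AT5G41663), in both cases starting where the annotated mature miRNA starts. The miR319c entry lies at chr2:17029869-17029889 on the plus strand (MIR319c, AT2G40805) and starts 1 base upstream of the annotated miR319c. miR159a lies at chr1:27713234-27713254 on the minus strand (MIR159a) and miR159b-3p at chr1:6220813-6220833 on the plus strand (MIR159b). With positions counted from 1 at the 5′ end, and miR319c set against miR159b-3p, there were 2 differences, C7U and C20U. Against miR159a there were 3 differences, C7U, C20U and U21A. When miR319a/b was shifted by 1 base against miR319c, 20 bases could be compared and 1 difference remained, C20U. As listed, the miR319c entry thus begins at the same register as miR159 and has the seed of miR159 with 1 base changed, whereas the seed of miR319a/b is offset by 1 base. Whether the reads start at this base or the register was set when the entries were made cannot be seen in the tables, and from the annotated start of miR319c the seed would be that of miR319a/b.

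Both miR319 sequences were lower in ein2-1, miR319a/b at 19.9% and miR319c at 11.8% of the Col-0 mean. Levels are given in CPM, the counts scaled to a library total of 1000000 after TMM adjustment between libraries. Of the 118 distinct sequences tested, 66.9% passed an adjusted p of 0.05 (edgeR) and 32.2% passed as lower in ein2-1, so a fall by itself was common in this comparison. That fit ran on the entries, repeats included. With 1 entry per distinct sequence, 63 of 120 passed, 25 as rises and 38 as falls. Library totals were between 1163907 and 1882664 counts in ein2-1 and between 559411 and 940058 in Col-0. TMM factors were 0.7367 to 0.8526 in ein2-1 and 1.204 to 1.323 in Col-0, and their part in the results is given below by other scalings.

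miR319a/b had 2391, 2608 and 3834 CPM in ein2-1, against 15323, 15391 and 13689 CPM in Col-0. Every ein2-1 library lay below every Col-0 library, as held for 31.4% of the sequences tested, with replicate 3 the highest of ein2-1 and the lowest of Col-0. The means were 2944 ± 778 CPM in ein2-1 and 14801 ± 964 CPM in Col-0 (SD, n = 3 each), a log2 fold change of -2.33 (SE 0.19, edgeR quasi-likelihood adjusted p 2.0e-07). Behind these levels stood 2373, 3796 and 4040 reads in ein2-1 and 17338, 11132 and 10308 reads in Col-0, so that counting error was small beside the spread of libraries. By level it was the 17th most abundant of the tested sequences in ein2-1 and the 8th in Col-0.

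miR319c had 524, 362 and 252 CPM in ein2-1, against 3144, 3467 and 3032 CPM in Col-0. The genotypes again did not overlap, and here replicate 3 was the lowest of ein2-1. The means were 379 ± 137 CPM in ein2-1 and 3215 ± 226 CPM in Col-0 (SD, n = 3 each), a log2 fold change of -3.08 (SE 0.25, edgeR quasi-likelihood adjusted p 2.0e-07). The counts were 520, 527 and 266 reads in ein2-1 and 3558, 2508 and 2283 reads in Col-0. By size of fall miR319c stood 5th and miR319a/b 17th of the 118. The neighbours of miR319c in that order were miR779.2 at -3.23 (SE 0.22) and miR8184 at -3.08 (SE 0.25), and those of miR319a/b were miR171b-5p at -2.38 (SE 0.24) and miR1888b (other product) at -2.12 (SE 0.29). Each differed from its miR319 neighbour by less than the larger of both standard errors. In the order of levels, miR319a/b and miR393a/b-5p (2972 ± 1119 CPM) in ein2-1, and miR319a/b and miR167a-3p (14184 ± 1849 CPM) in Col-0, differed by less than their SD, whereas miR390a/b-5p (17535 ± 1566 CPM) lay above miR319a/b in Col-0 by more than both SD together. miR319c stood 22nd by level in ein2-1, near miR841a/b-3p (344 ± 112 CPM), and 13th in Col-0, near miR398b/c-3p (2689 ± 425 CPM), with overlapping spreads in both.

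The lower level did not hang on the scaling. As a share of all reads of distinct sequences, miR319a/b made up 0.391%, 0.385% and 0.546% in ein2-1 and 3.11%, 3.34% and 3.06% in Col-0. miR319c made up 0.0857%, 0.0534% and 0.036% in ein2-1 and 0.639%, 0.753% and 0.677% in Col-0. With library-size scaling the log2 fold changes were -3.04 for miR319a/b and -3.75 for miR319c, over 1.5 times as large in fold as under TMM, and the median of all sequences moved by -0.69 with them. Relative to the median sequence, miR319a/b lay at -2.40 to -2.39 and miR319c at -3.14 to -3.09 over 4 scalings, which by construction shift all sequences alike. In the authors' deposited table the log2 fold changes were -2.19 (FDR 1.7e-31) for miR319a/b and -2.90 (FDR 7.8e-21) for miR319c. Both are in the authors' list of 46 entries, where the miR319c entry is named "Unknown".

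**Figure D1:**
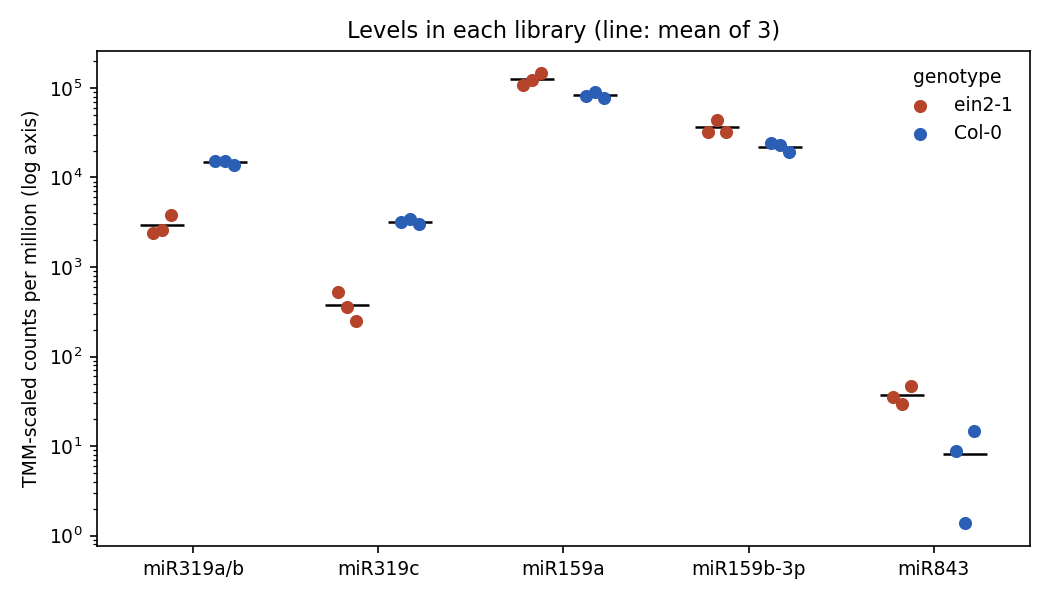
TMM-scaled CPM (log axis) of both miR319 sequences, both miR159 sequences and miR843 in each library, ein2-1 (red) left of Col-0 (blue), with a line at the mean of 3 libraries. Both miR319 sequences lie lower in all 3 ein2-1 libraries (means 2944 and 379 CPM in ein2-1, 14801 and 3215 CPM in Col-0), while miR159a, miR159b-3p and miR843 lie higher.

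**Figure D2:**
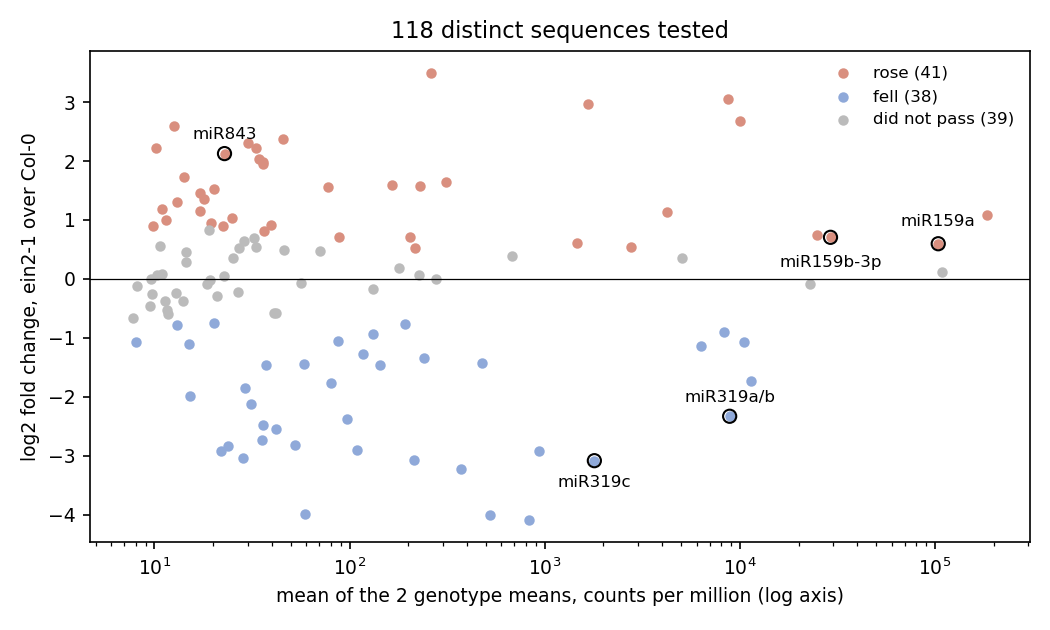
Log2 fold change (ein2-1 relative to Col-0, y axis) against the mean level in CPM (log x axis) for the 118 distinct sequences tested, coloured by call at an edgeR adjusted p of 0.05 (rises 41, falls 38, neither 39). miR319a/b (-2.33) and miR319c (-3.08) lie among the falls at levels above those of most sequences that fell.

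The MIR159 sequences of the table moved the other way under TMM. miR159a had 106533, 123300 and 145856 CPM in ein2-1, against 80905, 90213 and 77270 CPM in Col-0 (log2 fold change 0.60, SE 0.14, edgeR quasi-likelihood adjusted p 0.002). miR159b-3p had 32463, 43473 and 32556 CPM in ein2-1, against 24395, 23091 and 19027 CPM in Col-0 (log2 fold change 0.71, SE 0.16, edgeR quasi-likelihood adjusted p 0.00135). For both, every ein2-1 library lay above every Col-0 library, which held for 35.6% of the tested sequences. Their higher level in ein2-1 rested on the scaling. Under library-size scaling, with totals that count repeated entries, miR159a had -0.11 and miR159b-3p 0.01 and neither passed. As shares of distinct reads, miR159a overlapped between genotypes (17.4%, 18.2% and 20.8% in ein2-1, 16.4%, 19.6% and 17.3% in Col-0). So did miR159b-3p (5.31%, 6.41% and 4.64% in ein2-1, 4.96%, 5.02% and 4.25% in Col-0). Both calls were also lost when repeated entries were dropped (0.42 for miR159a, edgeR adjusted p 0.2, and 0.57 for miR159b-3p, edgeR adjusted p 0.108). Relative to the median sequence, miR159a lay at 0.53 to 0.54 and miR159b-3p at 0.65 to 0.67 over the same 4 scalings.

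A ratio within a library needs no scaling between libraries. The log2 ratio of summed miR319 to summed miR159 reads was -5.58, -5.81 and -5.45 in ein2-1, against -2.51, -2.59 and -2.53 in Col-0. The genotypes lay far apart relative to their spread, with a difference of -3.07. In reads, there were 47.7, 56.2 and 43.7 reads of miR159 per read of miR319 in ein2-1 and 5.7, 6.01 and 5.76 in Col-0. The exact permutation test gave a two-sided p of 0.1, the smallest that 3 libraries against 3 can give, and 0.16 after Benjamini-Hochberg adjustment over 8 ratios computed. The ratio of miR159b-3p to miR159a, in contrast, overlapped between genotypes and differed by 0.11 on the log2 scale (exact permutation p 0.6, adjusted 0.6).

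The balance between both miR319 members was not separated by genotype. The log2 ratio of miR319c to miR319a/b was -2.19, -2.85 and -3.92 in ein2-1, against -2.28, -2.15 and -2.17 in Col-0. The Col-0 libraries lay close together, whereas ein2-1 replicate 1 lay among them and replicates 2 and 3 below them. For each read of miR319c there were 4.56, 7.2 and 15.2 reads of miR319a/b in ein2-1 and 4.87, 4.44 and 4.52 in Col-0. The difference of the log2 ratios was -0.78 (exact permutation p 0.2, adjusted 0.229 over the 8 ratios), and it was -0.32 without ein2-1 replicate 3 and -1.18 without ein2-1 replicate 1. In the same library, ein2-1 replicate 3, miR319a/b was the highest and miR319c the lowest of the genotype.

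**Figure D3:**
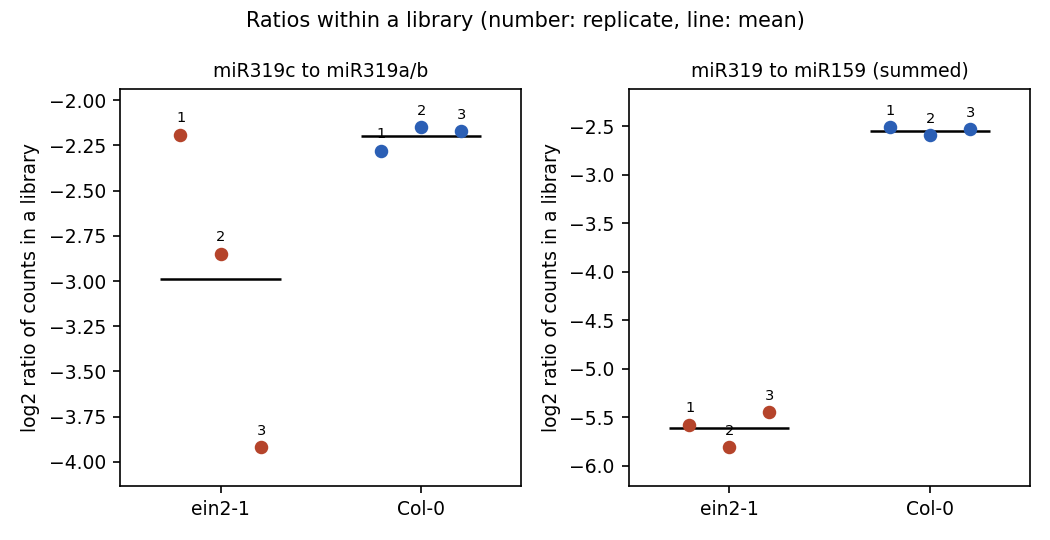
Log2 ratio of counts within each library, ein2-1 (red) left of Col-0 (blue), with the replicate number at each point and a line at the mean; left, miR319c to miR319a/b, and right, summed miR319 to summed miR159. The miR319c to miR319a/b ratio ranges from -3.92 to -2.19 in ein2-1 and overlaps with Col-0, while the miR319 to miR159 ratio lies at -5.81 to -5.45 in ein2-1 and -2.59 to -2.51 in Col-0.

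The sequences most like each member over the 6 libraries were sought by Pearson's r of log2 CPM, given as a description. For miR319a/b these were an unannotated sequence (entry 196, r 0.995), miR860 (0.991) and the sequence of miR169h/i/j/k/l/m/n (0.991), from a family that targets NF-Y transcription factor subunits. For miR319c they were miR5028 (0.998), miR161.2 (0.991), from a locus that targets pentatricopeptide repeat genes, and miR779.2 (0.990). All 6 fell, with log2 fold changes of -3.99, -3.04, -2.83, -2.90, -0.90 and -3.23 in that order. Such r values mostly hold the gap between genotypes: 21 sequences had an r above 0.95 with miR319a/b and 15 with miR319c, and the members had 0.935 with each other.

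With the genotype means taken out, only the spread within genotypes is left. The members then had an r of -0.855 with each other over the 6 libraries. The opposite run lay in ein2-1, where miR319a/b was highest and miR319c lowest in replicate 3, while in Col-0 both were highest in replicate 2 and lowest in replicate 3. miR319a/b ran closest to an unannotated sequence (entry 39, r 0.982), miR860 (0.938) and miR169h/i/j/k/l/m/n (0.940), while miR319c ran closest to miR5028 (0.955), miR161.2 (0.776) and miR169a-3p (0.729). The points share library totals, and low counts stand behind several of them: miR860 had 3, 7 and 11 reads in ein2-1 and 58, 35 and 39 in Col-0. miR5028 had 32, 38 and 20 reads in ein2-1 and 211, 160 and 129 in Col-0.

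The TCP sites are what defined the members, so they are shown with their surroundings. Each stretch is the message-sense strand of TAIR10.1, 5′ to 3′, with the 21 bases opposite miR319a/b in capitals and 21 bases on either side in lower case. All lie within a single coding exon.
TCP2: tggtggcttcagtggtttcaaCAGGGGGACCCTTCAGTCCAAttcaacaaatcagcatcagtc
TCP3: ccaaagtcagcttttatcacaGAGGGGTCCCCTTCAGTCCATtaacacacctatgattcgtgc
TCP4: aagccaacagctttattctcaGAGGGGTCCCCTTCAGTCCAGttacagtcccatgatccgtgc
TCP10: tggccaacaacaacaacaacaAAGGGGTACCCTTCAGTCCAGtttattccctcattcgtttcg
TCP24: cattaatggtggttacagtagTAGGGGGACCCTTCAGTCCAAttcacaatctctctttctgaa

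The sites lie at chr4:10163402-10163422 on the minus strand (TCP2), chr1:19850522-19850542 on the minus strand (TCP3), chr3:5063300-5063320 on the plus strand (TCP4), chr2:13221210-13221230 on the minus strand (TCP10) and chr1:10628989-10629009 on the minus strand (TCP24). Within the site, 17 of 21 positions were the same in all 5 genes, against 0 of the 21 before it and 1 of the 21 after it. Between any pair of genes, 17 to 20 site positions were identical (median 18 over 10 pairs), while 2 to 11 were identical before the site (median 5) and 5 to 16 after it (median 7). The rule asked for a pairing site, so its likeness among the genes is part of the choice, but the bases on either side were not used. TCP3 and TCP4 hold the same site but for its last base, and TCP2 and TCP24 the same but for its first.

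The pairing of miR319a/b with these sites was alike in all 5 genes over most positions. Below, the sites are written as RNA, 5′ to 3′, with positions that do not pair with miR319a/b in capitals and G:U pairs left in lower case, beside the site that MYB33 and MYB65 share.
TCP2 site: CAggggGAcccuucaguccaa
TCP24 site: UAggggGAcccuucaguccaa
TCP10 site: aAgggguAcccuucaguccag
TCP4 site: gAgggguCcccuucaguccag
TCP3 site: gAgggguCcccuucaguccaU
MYB33 and MYB65 site: CUggagcucccuucaUuccaa

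Counted from the 5′ end of miR319a/b, positions 14 and 20 were unpaired in all 5 TCP sites and position 17 was a G:U pair in all 5. Position 15 was unpaired in TCP2 and TCP24 and a G:U pair in TCP3, TCP4 and TCP10. Position 1 was unpaired in TCP3 and a G:U pair in TCP4 and TCP10. Position 21 was unpaired in TCP2 and TCP24 and a G:U pair in TCP3 and TCP4. No TCP site had a mismatch between positions 2 and 13, which hold the seed and the centre. In MYB33, MYB65 and MYB104, by contrast, position 6, inside the seed, was unpaired. Positions 20 and 21 were unpaired there too, as in TCP2 and TCP24. The sheet scores TCP2, TCP4, TCP10 and TCP24 at 2.5 and TCP3 at 3.0, all as cleavage sites. Of all 10351 pairs of a distinct sequence and a site in the sheet, 6.99% scored 2.5 or less and 14.9% scored 3 or less.

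As listed, the miR319c entry scored as pairing less closely with the same sites. Its expectation was 3.5 in TCP2, TCP4, TCP10 and TCP24 and 4.5 in TCP3, above that of miR319a/b in each. The score is not a count of unpaired bases: miR319c left 3 unpaired in TCP2 and TCP24, where miR319a/b left 4. Both sequences left 2 unpaired in TCP4 and TCP10 and 3 in TCP3. In all 5 sites position 1 of miR319c, the base by which the entry starts upstream, was unpaired, as was position 15. The scores thus hold for the listed register, and a sequence from the annotated start was not scored here. With the limit of 4 the sequences thus have 9 predicted sites in the 5 genes, 5 of miR319a/b and 4 of miR319c. Since the expectation of 4 defined the members, these scores are a description.

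Other sequences with a site in the 5 genes were few. miR159a had none. miR159b-3p, whose 3′ end differs from that of miR159a by A21U, scored 4.0 in TCP4 and TCP10, at the limit, and 5.0 in TCP3. miR843, a miRNA for which no role is given here, scored 2.5 at a separate site in the 3′ UTR of TCP4 (chr3:5063700-5063720 on the plus strand). It had 35.3, 29.5 and 47.4 CPM in ein2-1, against 8.84, 1.38 and 14.6 CPM in Col-0. The ein2-1 libraries all lay higher, though on 35, 43 and 50 reads in ein2-1 and 10, 1 and 11 in Col-0 (log2 fold change 2.13, SE 0.44, edgeR quasi-likelihood adjusted p 6.5e-04).

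Summing the CPM of all sequences with a site shows how these levels add up for each gene. For TCP2 and TCP24, on which the sheet gives miR319a/b and miR319c alone, the sum was 2915, 2970 and 4086 CPM in ein2-1, against 18467, 18858 and 16720 CPM in Col-0. For TCP4 it was 2426, 2638 and 3881 CPM in ein2-1 and 15332, 15392 and 13703 CPM in Col-0 at an expectation of 3 or less. With the limit of 4, which adds miR319c and the abundant miR159b-3p, it was 35413, 46473 and 36689 CPM in ein2-1 and 42871, 41951 and 35762 CPM in Col-0. Under TMM the genotypes lay apart at 3 and overlapped at 4, so for TCP4 the sum turns on whether the weakest sites are counted. TCP10 did the same. Its sum at 3 was that of miR319a/b alone, and at 4 it was 35378, 46443 and 36642 CPM in ein2-1, against 42862, 41949 and 35747 CPM in Col-0. For both genes the sum at 4 was mostly miR159b-3p, whose higher level in ein2-1 rests on the scaling. As shares of distinct reads, miR159b-3p overlapped between genotypes while both miR319 sequences lay lower in ein2-1. The overlap of the sums at 4 is thus given for TMM only. For TCP3 the sum was that of miR319a/b alone at both limits, with the genotypes apart. The messages of these genes were not measured, and whether their levels differ was not tested.

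The other TCP genes that were looked up had no miR319 site. Of the 8 CIN-type TCP genes, TCP5, TCP13 and TCP17 had none at 4 or less from any sequence of the table. Of the class I TCP genes, factors of cell division and growth, 11 genes were matched to the list of 13 symbols, and none had a site at 4 or less. The symbols TCP11 and TCP21 both led to AT5G08330, so a separate TCP11 gene was not checked, and TCP6 was not matched. Of the 3 CYC/TB1-type genes, TCP12, a branching factor, had a site of miR171b-5p, which fell (29.2 to 33.0 CPM in ein2-1, against 148 to 185 CPM in Col-0).

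The GAMYB-like genes are the shared ground of both families. miR319c and both miR159 sequences had a site at 4 or less in 8 of 8 listed genes, and miR319a/b in 5 of 8. miR319a/b scored 1.5 in MYB33 and MYB65, factors of anther development, and in MYB104, lower than miR319c and miR159a in each (2.5, 2.5 and 2.0 for both). MYB97, MYB101 and MYB120, which act in pollen tubes, had sites of miR319c at 3.5, 3.5 and 4.0 and of miR159a at 2.0, 2.0 and 2.5, and none of miR319a/b. DUO1, a regulator of sperm cell formation, scored 3.5 with both miR319 sequences and 2.0 with both miR159 sequences, and MYB81 scored 3.0 with all 4. For MYB33 the summed CPM of sequences with a site at 3 or less was 141911, 169743 and 182498 in ein2-1, against 123767, 132162 and 113017 in Col-0. That sum was mostly miR159, and its higher level in ein2-1 rests on the scaling as that of miR159 does.

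**Figure D4:**
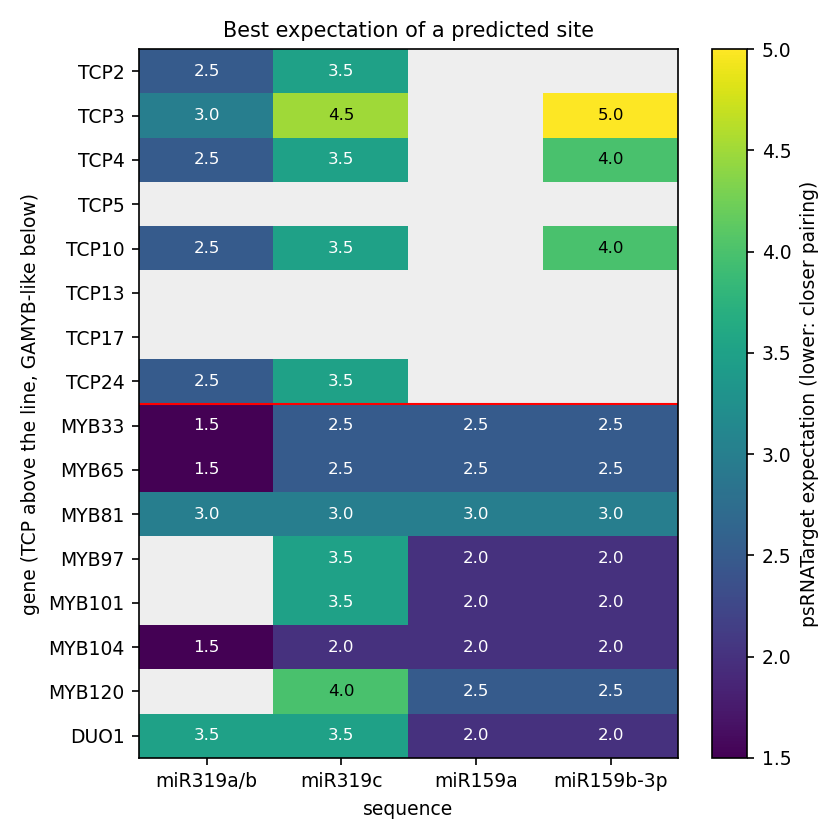
Best psRNATarget expectation of a predicted site of miR319a/b, miR319c, miR159a and miR159b-3p (columns) in the CIN-type TCP genes (rows above the line) and the GAMYB-like genes (rows below it); grey marks a pair without a site in the sheet used here. miR319a/b scores 2.5 to 3.0 in 5 TCP genes, miR319c 3.5 to 4.5 in the same 5, and the miR159 sequences score 2.0 to 3.0 in the GAMYB-like genes.

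At the limit of 4, miR319a/b had sites in 43 genes and miR319c in 54, with 30 shared, which is 69.8% of the miR319a/b genes and 55.6% of the miR319c genes. Of the 43 sites of miR319a/b, 32 lay in coding sequence, and 35 genes were given as cleaved and 8 as blocked in translation. miR159a shared 16 genes with miR319a/b and 25 with miR319c, or 37.2% and 46.3% of theirs. Beside the TCP and MYB33, MYB65 and MYB104 genes, the closest sites of miR319a/b were in AT1G48090, annotated as a lipid-binding protein, and in ALDH22A1, an aldehyde dehydrogenase, both at 2.5. For miR319c they were in AT2G27590, annotated as a methyltransferase, and SDG14, annotated as a SET domain protein, both at 2.5. ACS8, an enzyme of ethylene synthesis, was singled out after its values were seen: miR159a scored 1.5 there, miR319c 3.0 and miR319a/b 4.0.

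Of 15 genes listed as acting with or below CIN-type TCP factors, 1 had a miR319 site at 4 or less. This was IAA3, an auxin response repressor, with miR319c at 3.5 and both miR159 sequences at 4.0. CUC1 and CUC2, the organ boundary factors, had a site of miR164a/b-5p, which did not pass (54.4, 48.8 and 57.9 CPM in ein2-1, against 33.6, 40.1 and 41.2 CPM in Col-0; edgeR adjusted p 0.0889), although its ein2-1 libraries all lay higher. SAUR65, an auxin-induced growth gene, had a site of miR863-3p, NGA3, a leaf margin and style factor, of miR5028, and HAT2, a homeodomain factor of auxin responses, of miR773a. These 3 miRNAs fell, with log2 fold changes of -1.76, -2.90 and -2.93. The other 9 genes of the list, among them LOX2 of jasmonate synthesis and the leaf growth factors GRF5 and GIF1, had no site at 4 or less.

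The list of leaf development miRNAs had 20 sequences, with 11 rises, 6 falls and 3 without a call at a median log2 fold change of 0.57. It took every sequence of its MIR families, whichever arm of the hairpin (5p or 3p) it came from. Thus miR167 is in it as 3p sequences only, and miR172 as both a 5p and a 3p sequence. Over all 118 sequences there were 41 rises, 38 falls and 39 without a call, at a median of 0.06. The 11 rises ran from 0.53 (miR408-3p) to 3.05 (miR160a/b/c-5p), and the next largest were miR393a/b-5p at 2.97 and miR172b/e-5p at 1.95. Beside both miR319 sequences, the other 4 falls were miR167c-3p at -4.09, miR390a/b-5p at -1.74, miR394a/b-5p at -1.43 and miR167a-3p at -1.07. miR390 triggers the small RNAs that restrain auxin response factors, and miR394 limits a leaf and meristem F-box gene. miR396a-5p, which like miR319 bears on leaf cell division through its GRF targets, had 19251, 25316 and 21927 CPM in ein2-1, against 25801, 21159 and 23215 CPM in Col-0. Its libraries overlapped (log2 fold change -0.08, SE 0.15, edgeR quasi-likelihood adjusted p 0.654). miR164a/b-5p, whose gene MIR164a is a known target of TCP factors, did not pass, as given above, and neither did miR157a/b/c-5p at 0.35. The balance turned with the processing: the list had 5 rises and 7 falls when only library sizes were used for scaling, and 5 rises and 6 falls when repeated entries were dropped.

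**Figure D5:**
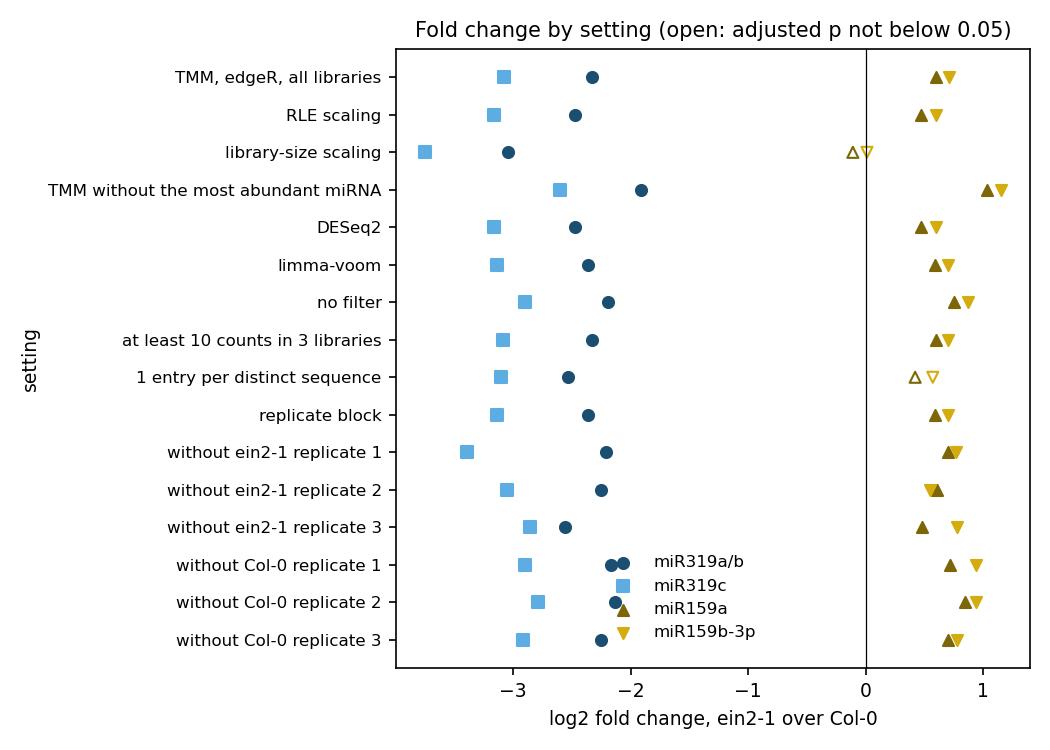
Log2 fold change (ein2-1 relative to Col-0, x axis) for both miR319 and both miR159 sequences under each setting (rows), with open symbols where the adjusted p was not below 0.05. miR319a/b stays between -3.04 and -1.91 and miR319c between -3.75 and -2.60, filled throughout, while the miR159 symbols are open when only library sizes were used and when repeated entries were dropped.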

How the data were processed

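Small RNA libraries of 3 ein2-1 and 3 Col-0 samples were analysed from the deposited tables. Adapters were removed with cutadapt and the genome was TAIR10, per the submitters' processing notes; no aligner or counting tool is named in the sources used here. Per the file headers, the authors gave raw counts per miRNA precursor entry, a normalised value (a score scaled to a library size and rounded), a log2 fold change with its p-value and FDR, and psRNATarget scores of predicted sites. The target pairs filled 23944 lines, and 7 further lines were empty and not used here. Entries with the same mature sequence carry the same counts.

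Counts were tested with edgeR 4.0.16 (R 4.3.3): TMM, filterByExpr, quasi-likelihood test of genotype, Benjamini-Hochberg over 153 entries (118 distinct sequences), threshold 0.05. The 25 entries not tested hold 0.0175% of the counts. Patterns used log2 CPM with 1 CPM added. DESeq2 1.42.0 and limma 3.58.1 were alternatives. The fit was tested on simulated data that held each sequence once, so the effect of repeated entries was not covered. All replicate pairs differed by more than counting noise. Whether the replicates were separate cultures is not stated beyond the word biological, so p-values measure the spread between these libraries. Sites were placed on TAIR10.1, in which all 13696 target transcripts with coordinates lay inside their gene. Named were both members, all MIR159 sequences, the sequences of the leaf development list, other entries with a TCP site and neighbours in rank. Also named were the 3 sequences most like each member in pattern by either measure, the 5 TCP genes, the gene lists and the 5 further genes of lowest expectation. Members and lists were chosen with earlier results of these data known.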

Additional observations from a re-analysis of the deposited data

How the results depend on the processing

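Both miR319 sequences kept their fall and their side of the threshold under all 15 alternatives run, with log2 fold changes of -3.04 to -1.91 for miR319a/b and -3.75 to -2.60 for miR319c. Library-size scaling, with totals that count repeated entries, gave -0.11 for miR159a and 0.01 for miR159b-3p, neither past the threshold. With 1 entry per distinct sequence they were 0.42 and 0.57 and did not pass. Rises in the leaf development list were 5 in both of these settings, against 11. Rises made up 51.9% of all calls under TMM, 26.2% with library-size scaling, 64.1% with TMM without the most abundant miRNA, 60.0% with no filter and 39.7% with 1 entry per distinct sequence, and the remaining settings gave 49.3% to 58.3%. Predicted sites in the 5 TCP genes numbered 5 at an expectation limit of 3, against 9, and miR319 target genes 25 at a limit of 3 and 119 at 5, against 67. With a replicate block, the fold changes were -2.36 for miR319a/b and -3.14 for miR319c, and 78 sequences passed, against 79. Whether replicate numbers pair the libraries was left unclear. Deviations of same-numbered libraries correlated at 0.209, -0.0365 and 0.166, and every ein2-1 library but replicate 2 correlated best with its own number. The share of miR319c in miR319 reads was added after seeing the data and differed by -5.73 percentage points (exact permutation p 0.2). The cause of these shifts was not tested. Depth limits miR843, with 1 read in Col-0 replicate 2.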
